A study of Rattus norvegicus with 18 samples.

Results

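The muscle alpha-actins are 3 of the actins whose filaments carry contraction: Acta1 (skeletal muscle alpha-actin), Actc1 (cardiac alpha-actin) and Acta2 (smooth muscle alpha-actin). They were chosen by symbol, each is 1 row of the 17303 in the table, and all 3 were among the 10478 rows that had at least 1 FPKM (fragments scaled to transcript length and to all mapped fragments) in at least 3 libraries and so entered the tests. Messenger RNA was sequenced from ventricular heart muscle cells of Wistar rats taken at day 3 after birth, in 18 libraries that form 6 groups of 3. All cultures, controls included, had 48 h of AraC, an agent that acts against dividing cells, then 24 h without serum, and then 48 h of treatment with a change of medium at 24 h. The groups were Vehicle; PE, phenylephrine at 10 µM; Senexin A alone at 10 µM or at 50 µM; and PE together with Senexin A at 10 µM or at 50 µM. PE activates alpha1-adrenergic receptors and is used in such cultures to drive hypertrophic growth, and Senexin A inhibits the kinase CDK8 of the Mediator complex. The study asked how that kinase bears on the transcriptional response to such growth signals. Cultured neonatal cells are a model of growth in a dish, and the bulk libraries hold the RNA of all the cells present.

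Actin monomers assemble into the thin filaments along which myosin pulls in the sarcomere. In the adult heart Actc1 is the main sarcomeric actin, while Acta1 is expressed in the fetal heart and returns during hypertrophy, so that it is used as a marker of the fetal gene programme. Acta2 is the actin of smooth muscle and of myofibroblasts, and it is also made early in heart development and in cultured neonatal heart muscle cells. The 3 genes are read from promoters that hold CArG boxes or close variants, the sites of serum response factor (SRF), which works with the coactivators myocardin and MRTF. The coding sequences of the actins are close to each other, and how reads that fit several of them were assigned is not given in the sources used here, so a part of any member's value may come from another member. No other row of the table overlaps the loci of the 3 genes, which on the rn5 build are chr19:67389898-67392911 for Acta1, chr3:112080852-112086389 for Actc1 and chr1:259760520-259773301 for Acta2.

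The promoters are shown because the members are known to share one regulator and yet did not move together. The 250 bases before each start are from the RefSeq promoter table on GRCr8, a later build than that of the levels, and all 3 lie on the minus strand: chr19:68784195-68784444 for Acta1, chr3:121271828-121272077 for Actc1 and chr1:241172504-241172753 for Acta2. The fourth line is a 30-base window over the start of Actc1, chr3:121271806-121271835. Capitals mark CArG boxes (CC, then 6 bases that are A or T, then GG), CArG-like boxes (the same with exactly 1 of the 6 middle bases G or C), the M-CAT motif CATTCC of TEAD factors, and TATAAA, on either strand.
Acta1: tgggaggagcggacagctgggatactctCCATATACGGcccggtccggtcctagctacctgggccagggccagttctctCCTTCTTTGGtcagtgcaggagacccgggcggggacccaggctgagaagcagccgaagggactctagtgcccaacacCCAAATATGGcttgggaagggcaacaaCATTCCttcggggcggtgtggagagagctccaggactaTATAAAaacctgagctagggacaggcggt
Actc1: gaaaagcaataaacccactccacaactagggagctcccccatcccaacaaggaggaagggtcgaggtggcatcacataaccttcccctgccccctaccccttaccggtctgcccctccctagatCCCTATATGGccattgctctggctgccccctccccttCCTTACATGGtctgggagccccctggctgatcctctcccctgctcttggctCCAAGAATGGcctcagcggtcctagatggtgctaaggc
Actc1 start: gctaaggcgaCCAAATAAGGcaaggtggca
Acta2: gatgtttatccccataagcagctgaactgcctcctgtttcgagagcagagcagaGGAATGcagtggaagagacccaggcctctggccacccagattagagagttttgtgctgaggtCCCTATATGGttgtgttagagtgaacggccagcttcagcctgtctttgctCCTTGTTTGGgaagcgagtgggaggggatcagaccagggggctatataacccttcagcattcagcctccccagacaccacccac

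Acta1 had a CArG box, CCAAATATGG, at bases -94 to -85 from its start. It also had 2 CArG-like boxes, from bases -222 and -171, a CATTCC from base -67 and a TATAAA from base -29. Actc1 had its CArG box, CCAAATAAGG, just past the annotated start at bases 3 to 12, and 3 CArG-like boxes before that start. All positions are counted from the start in the RefSeq promoter table. Where transcription starts in these cells was not examined, so the true distances may differ. Acta2 had no CArG box in the window and 2 CArG-like boxes. Its box from base -134 has the same 10 letters, CCCTATATGG, as the Actc1 box from base -126. The reverse complement of CATTCC stands in the Acta2 window from base -196. Among all 33469 promoters of the table, at 300 bases each (250 before the start and 50 after it), 1.637% held a CArG box, 8.103% a CArG-like box, 14.19% CATTCC and 14.22% TATAAA. These are matches of letters, and binding was not measured here.

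PE raised Acta1 and Actc1, and the test did not call Acta2 (the plot of levels by library shows each value). Acta1 stood at 219, 170 and 155 FPKM in Vehicle replicates 1 to 3 and at 3395, 3002 and 2837 FPKM in PE. Every PE library stood above every Vehicle library. The log2 fold change on the log2(FPKM + 1) scale was 4.09 (SE 0.18; limma, Benjamini-Hochberg adjusted p = 1.1e-09), and the group means were 181 ± 33.8 and 3078 ± 287 FPKM (SD, n = 3). Here and below, fewer cells of a type and less RNA per cell cannot be told apart in bulk RNA.

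Actc1 was already among the most abundant transcripts without PE, at 4591, 4137 and 3850 FPKM in Vehicle. With PE it stood at 16152, 15367 and 14716 FPKM, again without overlap. Its log2 fold change was 1.88 (SE 0.14; limma adjusted p = 2.6e-07). Acta2 stood at 2167, 1945 and 2594 FPKM in Vehicle and at 2890, 1752 and 2466 FPKM in PE. The PE libraries of Acta2 held both the highest and the lowest of these 6 values, and its log2 fold change was 0.06 (SE 0.18; limma adjusted p = 0.82). So 2 of the 3 members were called, both higher, where 30.6% of all tested rows were called and 17.9% were called higher and 12.7% lower. Whether replicates came from different animals or dishes is not in the labels, so the p-values speak only of the spread between these libraries, which may be technical.

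**Figure D1:**
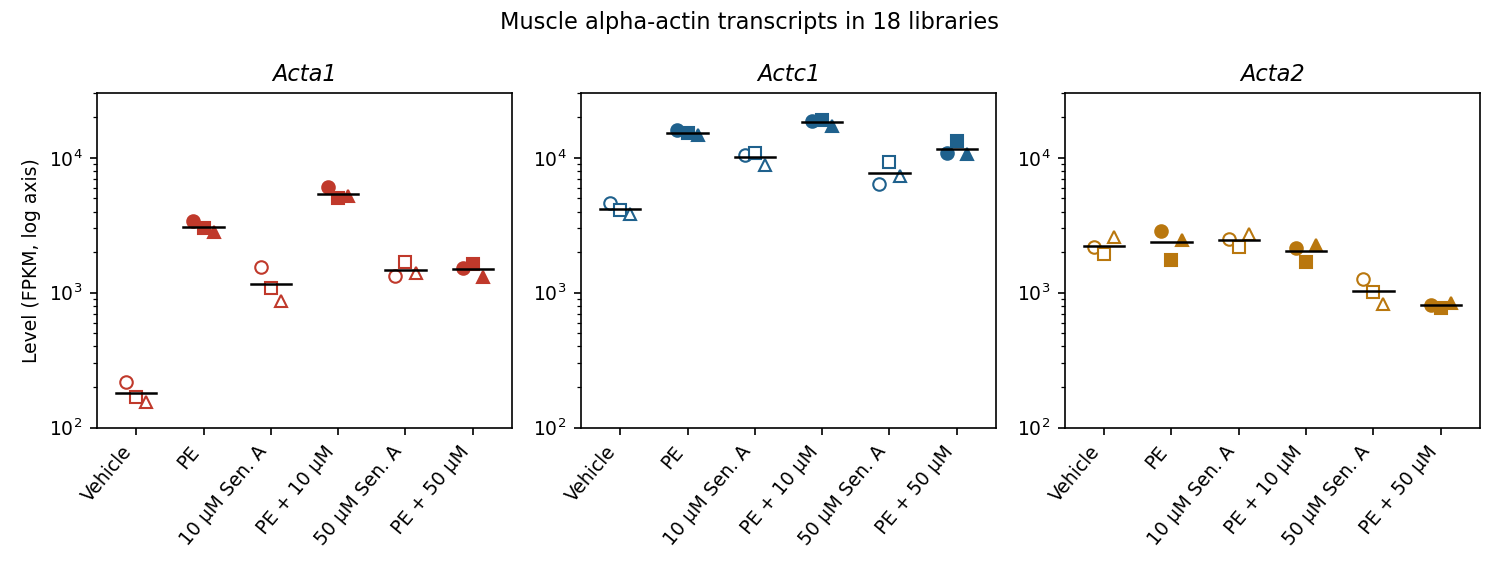
Level of each alpha-actin (FPKM, log axis) in each of 18 libraries, by group. Filled marks are groups with PE, open marks groups without it, circles, squares and triangles are replicates 1, 2 and 3, and black lines are group means. Acta1 spans 155 to 6075 FPKM, while Acta2 stands lower in both groups at 50 µM Senexin A (Sen. A on the axis).

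Senexin A alone also raised Acta1 and Actc1. At 10 µM Acta1 stood at 1549, 1088 and 870 FPKM, each above every Vehicle library. The log2 fold change against Vehicle was 2.66 (SE 0.18; limma adjusted p = 4.1e-07). Actc1 stood at 10516, 10779 and 8900 FPKM at that dose, with a log2 fold change of 1.26 (SE 0.14; adjusted p = 5.0e-05). Both levels lay between those of Vehicle and those of PE, with no overlap on either side. Acta2 stood at 2504, 2185 and 2710 FPKM, inside and around the Vehicle range, with a log2 fold change of 0.15 (SE 0.18; adjusted p = 0.63). For 10 µM against Vehicle, 16.2% of tested rows were called, 9.17% higher and 7.01% lower (26.4% in all with the replicate number as a block).

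At 50 µM alone all 3 members were called, and they did not move the same way. Acta1 stood at 1333, 1683 and 1396 FPKM, a log2 fold change of 3.02 against Vehicle (SE 0.18; limma adjusted p = 2.9e-09). Actc1 stood at 6425, 9354 and 7304 FPKM, a log2 fold change of 0.86 (SE 0.14; adjusted p = 8.8e-05), which was 0.31 under quantile normalization (adjusted p = 0.055). Acta2 stood at 1258, 1015 and 827 FPKM, all below the lowest Vehicle library. It fell by 1.12 on the log2 scale (SE 0.18; adjusted p = 5.6e-05). The background at this dose was wide, with 60.7% of rows called against Vehicle, 30.5% higher and 30.2% lower.

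The doses of Senexin A alone were also set against each other, a comparison that called 50.4% of rows. Acta2 was lower at 50 µM than at 10 µM by a log2 fold change of -1.27 (SE 0.18; limma adjusted p = 2.9e-05), with no overlap. For Actc1 the log2 fold change was -0.40 (SE 0.14; adjusted p = 0.030), though the libraries overlapped. This call was lost without replicate 1 or 2 of 10 µM (log2 fold change -0.37 and -0.35; limma adjusted p = 0.087 and 0.0996) and without replicate 1 or 3 of 50 µM (-0.28 and -0.37; limma adjusted p = 0.15 and 0.087). For Acta1 the doses were not called apart (0.36, SE 0.18; adjusted p = 0.099), while with the replicate number as a block the same difference passed at an adjusted p of 0.027. Leaving out replicate 1 of 10 µM Senexin A also moved it past the threshold, at a log2 fold change of 0.59 (limma adjusted p = 0.0072).

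Added to PE, the doses of Senexin A did opposite things to Acta1. With PE and 10 µM, Acta1 reached 6075, 5009 and 5195 FPKM, the highest of the 6 groups and above every PE library. The log2 fold change against PE was 0.82 (SE 0.18; limma adjusted p = 0.0055). With PE and 50 µM it stood at 1534, 1627 and 1309 FPKM, below every PE library and with a log2 fold change against PE of -1.05 (SE 0.18; adjusted p = 0.00011). Against Vehicle, both were higher, by 4.91 and 3.04 on the log2 scale (SE 0.18; adjusted p = 6.4e-11 and 1.9e-09). Between the doses in the presence of PE, Acta1 differed by -1.86 (SE 0.18; adjusted p = 8.6e-07).

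Actc1 stood at 18648, 19160 and 17230 FPKM with PE and 10 µM, all above the PE libraries, but the test did not call the difference (log2 fold change 0.25, SE 0.14; limma adjusted p = 0.25). With PE and 50 µM it stood at 10896, 13320 and 10747 FPKM, all below the PE libraries. Its log2 fold change there was -0.41 against PE (SE 0.14; adjusted p = 0.024) and -0.66 against PE with 10 µM (adjusted p = 0.0017), and both were 0.00 under quantile normalization, where Actc1 held the same rank in each of these libraries. The call against PE was lost when only the compared groups were fitted (adjusted p = 0.10) and when rows at low levels were kept (adjusted p = 0.15). It was also lost without replicate 1 or 2 of PE (-0.37 and -0.41; limma adjusted p = 0.073 and 0.054) and without replicate 1 or 3 of PE with 50 µM (-0.36 and -0.35; limma adjusted p = 0.071 and 0.085). Against Vehicle, Actc1 was higher by 2.13 with 10 µM and by 1.47 with 50 µM on the log2 scale (adjusted p = 4.9e-08 and 3.5e-07).

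Acta2 stood at 2130, 1689 and 2267 FPKM with PE and 10 µM, overlapping the PE and Vehicle values (log2 fold change -0.20 against PE, SE 0.18; limma adjusted p = 0.47; and -0.14 against Vehicle, adjusted p = 0.54). Under quantile normalization the value against Vehicle was -0.56 and passed (limma adjusted p = 0.025). With PE and 50 µM it stood at 813, 773 and 836 FPKM, below every library of PE, of Vehicle and of 10 µM. The log2 fold change was -1.52 against PE (SE 0.18; adjusted p = 3.1e-06), -1.46 against Vehicle (adjusted p = 3.6e-06) and -1.32 against PE with 10 µM (adjusted p = 2.8e-05). The share of tested rows called was 17.0% for PE with 10 µM against PE (9.13% higher and 7.84% lower, and 27.9% in all with the replicate block), and 1 of 3 members was called. It was 56.7% for PE with 50 µM against PE (29.3% higher and 27.4% lower), where all 3 members were called lower. It was 41.2% between the doses with PE, 48.7% for PE with 10 µM against Vehicle and 63.3% for PE with 50 µM against Vehicle.

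In order of their levels, the groups ran from Vehicle through 10 µM, 50 µM and PE with 50 µM to PE and PE with 10 µM for Acta1. The libraries of neighbours overlapped from 10 µM to PE with 50 µM, and the other neighbours stood apart. For Actc1 the order was Vehicle, 50 µM, 10 µM, PE with 50 µM, PE and PE with 10 µM, with overlap among the 3 middle groups. For Acta2 both groups at 50 µM lay at the bottom and overlapped each other, and the other 4 groups lay above them and overlapped in turn.

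**Figure D2:**
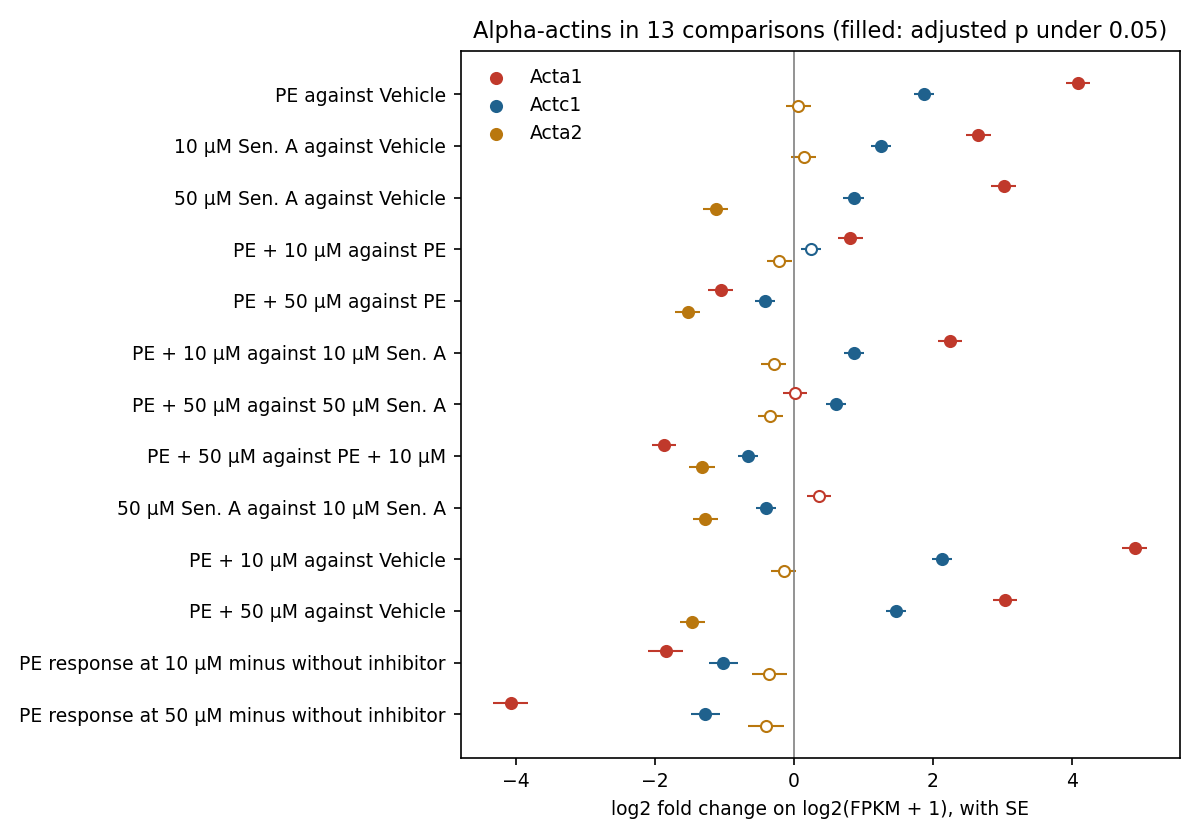
Log2 fold change on log2(FPKM + 1) with its standard error (bars) for each alpha-actin in 13 comparisons, of which the bottom pair are differences between PE responses. Filled points passed an adjusted p under 0.05 in limma. Acta1 ranges from 4.91 (PE with 10 µM Senexin A against Vehicle) to -4.07 (PE response at 50 µM minus the response without inhibitor).

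The PE response of Acta1 and Actc1 was smaller in the presence of Senexin A when measured as a fold change. Within 10 µM, PE raised Acta1 by 2.25 on the log2 scale (SE 0.18; limma adjusted p = 5.6e-07) and Actc1 by 0.87 (SE 0.14; adjusted p = 0.00033), in a comparison that called 32.5% of rows. Under quantile normalization, which gives each rank the same value in every library, the Actc1 value within 10 µM was -0.48 (adjusted p = 0.012). Within 50 µM, the log2 fold change of Acta1 with PE was 0.02 (SE 0.18; adjusted p = 0.96), with overlapping libraries, while Actc1 was higher by 0.61 (SE 0.14; adjusted p = 0.0098), in a comparison that called 14.3% of rows (23.8% with the replicate block). This call of Actc1 was lost when only the compared groups were fitted (adjusted p = 0.13), when rows at low levels were kept (adjusted p = 0.098) and without replicate 1 of 50 µM (0.49; limma adjusted p = 0.059). Acta2 had log2 fold changes of -0.29 and -0.34 with PE at the 2 doses (SE 0.18; adjusted p = 0.23 and 0.24).

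The difference between responses was tested itself, as an interaction. For Acta1 it was -1.84 at 10 µM (SE 0.25; limma adjusted p = 0.0035) and -4.07 at 50 µM (SE 0.25; adjusted p = 1.3e-07). For Actc1 it was -1.01 at 10 µM (SE 0.20; adjusted p = 0.049) and -1.27 at 50 µM (SE 0.20; adjusted p = 0.0018). Under quantile normalization the Actc1 value at 50 µM was -0.31 (limma adjusted p = 0.36). The Actc1 value at 10 µM lies at the threshold and was lost under several settings, for example at a pseudocount of 0.5 (adjusted p = 0.052), with rows at low levels kept (adjusted p = 0.28) and in all but 1 of the 12 fits that left out a library, among which the value ran from -1.10 to -0.95. For Acta2 the interaction was -0.35 and -0.40 (SE 0.25; adjusted p = 0.75 and 0.39). The interaction was called for 0.305% of rows at 10 µM and for 7.01% at 50 µM, so Acta1 and Actc1 are among few rows at the lower dose. With the replicate number as a block, 2.2% and 16.1% of rows were called. Both interactions share the Vehicle and PE libraries.

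The scale matters for Acta1 at 10 µM. Pairing libraries by replicate number, PE added 3176, 2832 and 2682 FPKM of Acta1 without the inhibitor and 4527, 3920 and 4325 FPKM at 10 µM. The addition was thus larger at 10 µM in each replicate, by 1361 ± 277 FPKM (SD, n = 3), while the ratio of PE to no PE went from 17.2 ± 1.5 to 4.83 ± 1.04 over mean levels without PE of 181 and 1169 FPKM. At 50 µM the addition was 201, -55.9 and -86.2 FPKM and the ratio 1.02 ± 0.115, lower than without inhibitor on either scale. For Actc1 the addition was 11219 ± 347 FPKM without inhibitor, 8281 ± 132 FPKM at 10 µM and 3960 ± 514 FPKM at 50 µM. Its ratios were 3.69 ± 0.154, 1.83 ± 0.0928 and 1.53 ± 0.145, so both scales fell in the same order. For Acta2 the addition was 133 ± 511, -437 ± 61.5 and -226 ± 227 FPKM, and its spread covered 0 without inhibitor and at 50 µM.

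**Figure D3:**
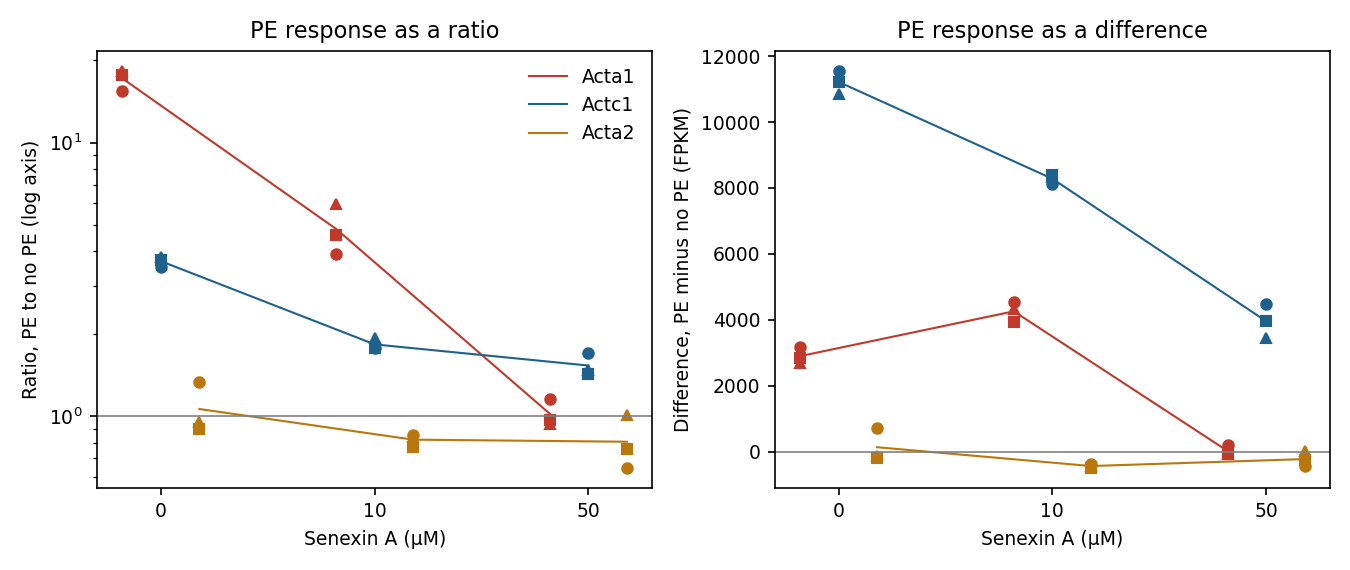
The PE response of each alpha-actin at 0, 10 and 50 µM Senexin A, as the ratio of PE to no PE (left, log axis) and as the difference in FPKM (right). Circles, squares and triangles are pairs of libraries with replicate number 1, 2 and 3, and lines join the means. The Acta1 ratio falls from 17.2 to 4.83 between 0 and 10 µM, while its difference rises from 2897 to 4257 FPKM.

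The make-up of the alpha-actin pool moved with these levels. FPKM is per length, so the 3 levels can be added, and a share of the sum does not change when a library is scaled by a single factor. In Vehicle the sum was 6610 ± 363 FPKM, and Acta1 held 2.74% ± 0.40, Actc1 63.4% ± 4.41 and Acta2 33.8% ± 4.75 of it (SD, n = 3). In PE the sum was 20859 ± 1368 FPKM, and the shares were 14.7% ± 0.505, 74.0% ± 2.23 and 11.3% ± 2.26. Acta1 stood at a larger share and Acta2 at a smaller one, while the level of Acta2 was not called different.

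Acta1 reached its highest share, 21.0% ± 1.63, with PE and 10 µM, and stood at 8.45% ± 1.93 at 10 µM alone. At 50 µM the direction turned: Acta1 held 14.8%, 14.0% and 14.6% without PE and 11.6%, 10.3% and 10.2% with it. The share of Actc1 was highest with PE and 50 µM, at 83.5% ± 1.23, and that of Acta2 lowest there, at 5.85% ± 0.823. The ratio of Actc1 to Acta1 fell from 23.4 ± 2.15 in Vehicle to 5.02 ± 0.231 in PE and 3.40 ± 0.385 in PE with 10 µM. It was 7.83 ± 0.633 in PE with 50 µM, more than in 50 µM alone (5.20 ± 0.371).

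With 3 libraries against 3, an exact permutation test of a share cannot give a p under 0.1, and no single comparison of the 27 could pass. Over all 18 libraries, with labels permuted within each dose of Senexin A, PE changed the share of Acta2 by -12.4 points on average (exact two-sided permutation p = 0.00025, the smallest that 8000 arrangements can give; 0.00075 adjusted over 3 members). It changed that of Acta1 by 6.93 points (exact permutation p = 0.006, adjusted 0.009) and that of Actc1 by 5.50 points (exact permutation p = 0.01425, adjusted 0.01425). The Actc1 value turned to -4.16 points under quantile normalization (exact permutation p = 0.2065). These are averages over doses, and for Acta1 the PE effect at 50 µM was of the other sign. The permutations did not keep libraries paired by replicate number. The 3 shares add up to the whole pool, so their p-values are not independent of each other.

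**Figure D4:**
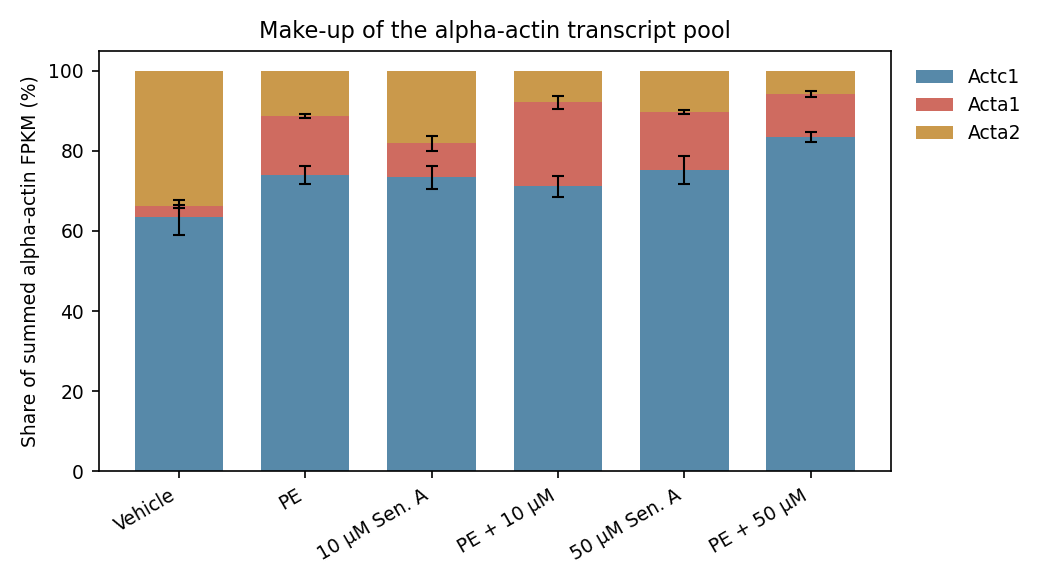
Share (%) of Actc1, Acta1 and Acta2 in their summed FPKM, as stacked means of 3 libraries per group. The error bar on top of the Actc1 and the Acta1 segments is the SD of that segment's own share. The Acta2 segment goes from 33.8% in Vehicle to 5.85% in PE with 50 µM Senexin A (Sen. A).

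The 3 actins Actb, Actg1 and Actg2, which are not muscle alpha-actins, were lower wherever the tests below called them. Actb and Actg1 are the cytoplasmic actins found in nearly all cells, and Actg2 is the gamma-actin of visceral smooth muscle. None of the 3 was called higher in PE, in either dose alone or in either dose with PE against PE. Lower calls numbered 2 in PE, 2 at 10 µM, 3 at 50 µM, and 3 at each dose with PE against PE. Over all tested rows 12.7% were called lower in PE, 7.01% at 10 µM and 30.2% at 50 µM. With PE and 10 or 50 µM against PE, 7.84% and 27.4% were. Actg2 went from a mean of 535 FPKM in Vehicle to 89.8 FPKM at 50 µM (log2 fold change -2.57; limma adjusted p = 1.7e-06). Actb went from 1648 to 790 FPKM there (-1.08; adjusted p = 5.9e-06) and Actg1 from 882 to 319 FPKM (-1.49; adjusted p = 3.1e-08).

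Actg1 stood at 702 FPKM in PE and at 394 FPKM in PE with 10 µM (-0.83; limma adjusted p = 0.00025), a dose at which Acta1 rose against PE. In PE, Actb had a log2 fold change of -0.41 against Vehicle (limma adjusted p = 0.033), without overlap of libraries. Actg2 in PE was not called (-0.49; adjusted p = 0.22). Across the 18 libraries log2(FPKM + 1) of Acta1 and Actc1 correlated with r = 0.95, Acta2 with Actb r = 0.87 and with Actg2 r = 0.89, and Acta2 with Acta1 r = -0.08. These are descriptions over libraries that share 6 treatments. In deviations from group means the values were 0.68 for Acta1 with Actc1, 0.88 for Acta2 with Actb and 0.86 for Acta2 with Actg2. Replicate 2 was the lowest of its group in 5 of 6 groups for Acta2 and Actb and in 6 of 6 for Actg2, and replicate 3 was the lowest in 5 of 6 groups for Actc1 and 4 of 6 for Acta1.

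**Figure D5:**
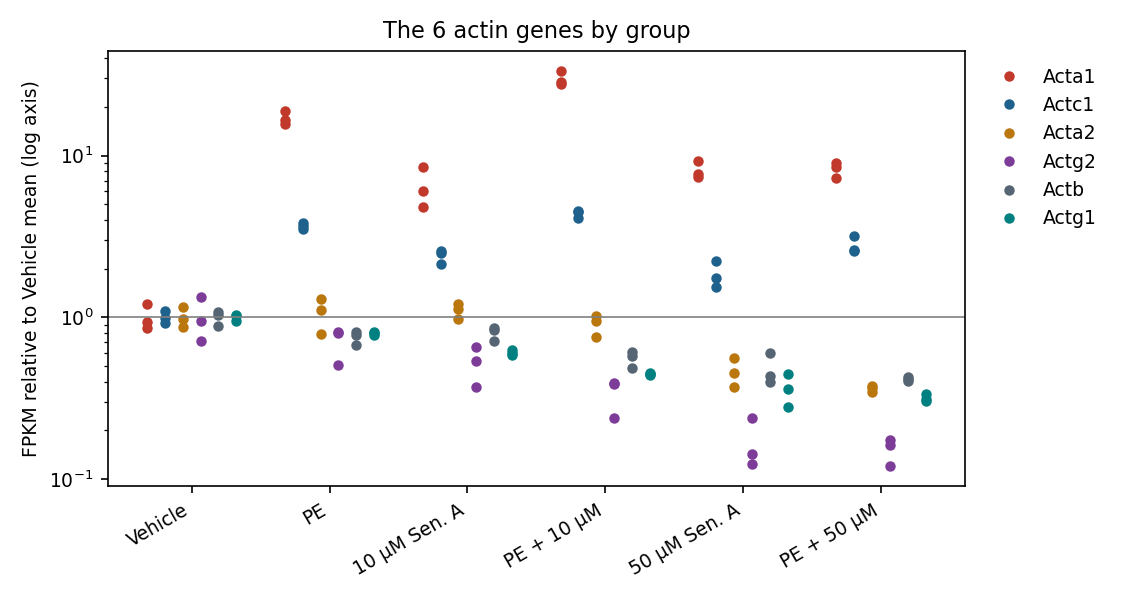
FPKM of 6 actin genes in each library relative to the mean of that gene in Vehicle (log axis), by group, with 3 points per gene and group. Acta1 and Actc1 lie above 1 in all treated groups, and Actg2, Actb and Actg1 lie below 1 in both groups at 50 µM Senexin A (Sen. A).

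Genes whose proteins build and cap the thin filament were mostly higher in PE, as the sarcomeric actins were: of 14 tested, 9 were called higher and 0 lower, with a median log2 fold change of 0.50 against -0.01 over all rows. Tpm1, the tropomyosin that lies along the filament, went from 3512 to 7426 FPKM (1.08; limma adjusted p = 4.1e-06). Tnnc1, the calcium-binding troponin, rose by 1.07 (adjusted p = 2.2e-05), and Lmod2, which lengthens thin filaments, by 1.84 (adjusted p = 0.0035). At 10 µM alone 5 were higher and 1 lower, at 50 µM alone 3 were higher and 5 lower, and with PE and 10 µM against PE 2 were higher and 2 lower. With PE and 50 µM against PE 0 were higher and 9 lower, with a median of -0.37 against 0.00. The share called in PE, 64.3%, stands beside 30.6% of all rows. At 10 µM the shares were 42.9% alone and 28.6% with PE against PE, beside 16.2% and 17.0%. At 50 µM they were 57.1% alone and 64.3% with PE against PE, beside 60.7% and 56.7%. With PE and 50 µM against PE, Lmod2 changed by -1.93 (limma adjusted p = 0.00094). Actn2, the Z-disc crosslinker of actin, changed by -1.02 there (limma adjusted p = 6.8e-07) and Tpm2 by -0.97 (limma adjusted p = 0.00023). With PE and 10 µM, Lmod2 was lower than in PE (-1.45; adjusted p = 0.025), while Nebl and Tnni3 were higher (0.70 and 0.45; adjusted p = 0.037 and 0.038). With the replicate block 1 gene was lower in PE and 2 at 10 µM, and under quantile normalization 5 were higher and 2 lower in PE.

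Of 19 tested genes for monomer binding, nucleation and turnover, 9 were higher and 2 lower in PE. Cfl2, the muscle cofilin that severs filaments, went from 148 to 347 FPKM (1.22; limma adjusted p = 6.7e-08). Dstn, which also severs filaments, rose by 0.65 (adjusted p = 0.0002), and Twf2, a monomer-binding twinfilin, by 0.51 (adjusted p = 0.019). The counts were 3 higher and 0 lower at 10 µM, 3 and 7 at 50 µM, 2 and 1 with PE and 10 µM against PE, and 2 and 9 with PE and 50 µM against PE. In PE 57.9% of the list was called, against 30.6% of all rows. At 10 µM it was 15.8% alone and 15.8% with PE against PE, near the 16.2% and 17.0% of all rows. At 50 µM alone it was 52.6% and with PE and 50 µM 57.9%, against 60.7% and 56.7%. Fhod3, a formin of heart sarcomeres, was higher with PE and 10 µM than in PE (0.74; adjusted p = 0.00092), as was Cap2 (0.47; adjusted p = 0.0018), while Cfl2 was lower (-0.40; adjusted p = 0.0029). With PE and 50 µM, Fhod1, another formin, changed by -1.32 (adjusted p = 7.9e-06), Gsn, which severs and caps filaments, by -1.19 (adjusted p = 1e-05) and Cfl2 by -0.69 (adjusted p = 2.3e-06). With the replicate block 1 gene was lower at 10 µM, and 5 were higher and 2 lower with PE and 10 µM against PE. Under quantile normalization 5 were higher and 4 lower in PE.

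New actin chains are folded by the chaperonin CCT with prefoldin. Of 12 tested genes for folding and maturation, 9 were higher and 0 lower at 50 µM alone, with a median of 0.43 against -0.01 over all rows. With PE and 50 µM against PE, 9 were higher and 1 lower (median 0.36 against 0.00), at a dose where all 3 alpha-actins were lower than in PE. Over all rows 30.5% and 29.3% were called higher in these comparisons. Pfdn6, a prefoldin subunit, rose by 0.84 there (limma adjusted p = 1.2e-06) and Cct4 by 0.63 (adjusted p = 6.3e-07), while Pfdn1 fell by 0.54 (adjusted p = 0.002). In PE, 4 were higher and 0 lower, led by Pfdn1 (0.79; adjusted p = 0.00026), Cct3 (0.37; adjusted p = 0.0014) and Cct7 (0.30; adjusted p = 0.0023). At 10 µM 1 was higher and 0 lower, and with PE and 10 µM against PE 1 was higher, Pfdn6 (0.32; adjusted p = 0.022), and 1 lower, Pfdn1 (-0.39; adjusted p = 0.045). In PE 33.3% of the list was called, near the 30.6% of all rows. At 10 µM it was 8.33% alone and 16.7% with PE against PE, beside 16.2% and 17.0%. With the replicate block 2 were higher at 10 µM and 4 with PE and 10 µM against PE. Under quantile normalization 1 was higher and 3 lower in PE.

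Among 15 tested transcription factors known for alpha-actin promoters, 3 were higher and 2 lower in PE. Srf stood at 68.0 FPKM in Vehicle and 89.6 FPKM in PE (0.39; limma adjusted p = 0.00052). Myocd, its muscle coactivator, stood at 8.86 and 16.0 FPKM (0.79; adjusted p = 0.0063). Tead2 fell by 0.94 (adjusted p = 0.0025) and Smad3, which carries TGF-beta signals, by 0.56 (adjusted p = 0.0032). At 10 µM alone 6 were higher and 0 lower, at 50 µM alone 2 were higher and 7 lower, with PE and 10 µM against PE 2 and 1, and with PE and 50 µM against PE 2 and 6. At 50 µM alone 60.0% of the list was called and with PE and 50 µM 53.3%, near the 60.7% and 56.7% of all rows. In PE it was 33.3%, near the 30.6% of all rows. At 10 µM it was 40.0% alone and 20.0% with PE against PE, beside 16.2% and 17.0%. With the replicate block 2 were lower at 10 µM alone and 2 with PE and 10 µM against PE.

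At 10 µM alone Srf and Myocd were higher than in Vehicle (0.38 and 0.72; limma adjusted p = 0.0017 and 0.021), where Acta1 and Actc1 were higher too. In PE with 10 µM neither was called against PE (0.13 and -0.008; adjusted p = 0.20 and 0.99), where Acta1 was higher. Srf was higher than in Vehicle at 50 µM alone (0.34; limma adjusted p = 0.00044), where Acta1 and Actc1 were higher and Acta2 lower. Srf was lower in PE with 50 µM than in PE (-0.17; adjusted p = 0.038), where all 3 members were lower. At 50 µM alone Myocd was not called (-0.34; adjusted p = 0.14), and in PE with 50 µM Myocd was lower than in PE (-0.65; adjusted p = 0.0095), as was Tead3 (-0.63; adjusted p = 6e-05). Tead1 was not called in any of these 5 comparisons. In PE with 10 µM, Tbx20 and Mef2a were higher than in PE (0.64 and 0.49; adjusted p = 0.018 and 0.0054). Mrtfa and Mrtfb were not matched in the table, also under their older symbols.

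Most other targets of SRF and MRTF were called lower at 50 µM. Of 18 tested, 2 were higher and 14 lower at 50 µM alone (median -0.96), and 0 were higher and 17 lower with PE and 50 µM against PE (median -1.08, against 0.00 over all rows, of which 27.4% were called lower). Cnn1, the smooth muscle calponin, stood at 124 FPKM in Vehicle, 264 FPKM in PE and 72.2 FPKM in PE with 50 µM, a log2 fold change of -1.84 against PE (limma adjusted p = 3.1e-05). Cyr61, a secreted matricellular protein, changed by -1.84 as well (adjusted p = 5.8e-05) and Egr1, an immediate early factor, by -2.02 (adjusted p = 0.0061). In PE 6 were higher and 0 lower, led by Fhl1, a LIM protein of the sarcomere (2.78; adjusted p = 5.3e-09), Myl9 (1.09; adjusted p = 0.0007) and Cnn1 (1.07; adjusted p = 0.0075). At 10 µM alone 3 were higher and 2 lower. In PE 33.3% of the list was called, near the 30.6% of all rows. At 10 µM it was 27.8% alone and 38.9% with PE against PE, beside 16.2% and 17.0%. At 50 µM alone it was 88.9%, beside 60.7%. With the replicate block 3 were lower in PE and 6 at 10 µM alone. With PE and 10 µM against PE 0 were higher and 7 lower, among them Cyr61 (-0.93; adjusted p = 0.038), Itga5 (-0.92; adjusted p = 6.5e-05) and Myh9 (-0.72; adjusted p = 0.014), while Acta1 was higher.

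By Pearson correlation of log2(FPKM + 1) over 18 libraries, among 8699 rows with a group mean of at least 5 FPKM, the rows most like Acta1 were Tpm1 (r = 0.957), Hacd1 (0.955), Mecr (0.953), Mtfr1l (0.952) and Mdh2 (0.949). Mdh2 is the mitochondrial malate dehydrogenase, and Mecr works in mitochondrial fatty acid synthesis. Those most like Actc1 were Tgfb1i1 (0.953), Fsd2 (0.950), Nppb (0.949), Tnnc1 (0.946) and Tpm1 (0.946). Nppb encodes the natriuretic peptide BNP, a marker of cardiac load, and Tpm1 is in both sets. Those most like Acta2 were Bcam (0.966), Limch1 (0.966), Col8a1 (0.965), Sulf1 (0.961) and Dpysl3 (0.961). Bcam is a laminin receptor, Col8a1 a collagen chain and Sulf1 a sulfatase of the cell surface. The libraries share 6 treatments, and ranked over the 6 group means instead, 1 of the 5 rows stayed among the first 5 for Acta1, 0 for Actc1 and 2 for Acta2.

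Markers of other cells give the setting of Acta2. Heart muscle markers were high: the summed level of 7 heart muscle markers was 30779 to 94212 FPKM over the libraries. Its median was 41489 FPKM in Vehicle, 78043 in PE, 49127 at 10 µM, 62802 with PE and 10 µM, 37303 at 50 µM and 42081 with PE and 50 µM, so it too was higher in PE and lower with PE and 50 µM than in PE. Myl2 made up most of this sum, at means of 29979 FPKM in Vehicle, 69505 in PE and 31560 with PE and 50 µM. Of the 7 markers 4 were called higher and 1 lower in PE, where 17.9% and 12.7% of all rows were. With PE and 50 µM against PE 2 were higher and 2 lower, where 29.3% and 27.4% of all rows were. The part of these markers in the values of Acta1 and Actc1 was not tested. For 10 smooth muscle and pericyte markers the sum ran from 2659 to 3627 FPKM in Vehicle and from 2117 to 2925 FPKM in PE. It ran from 1757 to 2454 FPKM at 10 µM, from 1584 to 2253 FPKM with PE and 10 µM, from 1045 to 1662 FPKM at 50 µM and from 1098 to 1255 FPKM with PE and 50 µM. Tagln, which is also an SRF target, made up most of the sum, at 2809 FPKM in Vehicle and 1065 FPKM at 50 µM (log2 fold change -1.42; limma adjusted p = 5.3e-06). Of the 10 markers 0 were called higher and 3 lower at 50 µM alone, where 30.2% of all rows were lower, and 0 and 2 with PE and 50 µM against PE, where 27.4% were, so these shares are near or under those of all rows. At 10 µM alone 2 were higher, Rgs5 (2.16; limma adjusted p = 0.013) and Smtn (0.42; adjusted p = 0.048), and 1 lower. Of the pericyte genes, at 50 µM alone Rgs5 had 0.89 and Kcnj8 0.60 (limma adjusted p = 0.16 and 0.11), and Pdgfrb had -0.03 (adjusted p = 0.92). Notch3, of the same marker list, was called lower at 50 µM alone (-0.90; limma adjusted p = 0.023). Cspg4, also of that list, had -0.17 and was not called (limma adjusted p = 0.63). Myh11, the smooth muscle myosin, stood at 87.7 FPKM in Vehicle and 49.4 FPKM at 50 µM and was not called (-0.80; adjusted p = 0.057). Cnn1, which is also on the list of SRF targets, was called lower at 50 µM alone (-1.65; limma adjusted p = 7.4e-05). Lmod1 and Smtn had -0.56 and -0.28 there and were not called (limma adjusted p = 0.085 and 0.087).

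The summed level of 11 fibroblast markers was 1873 to 3146 FPKM in Vehicle, 1272 to 2008 in PE, 1721 to 3271 at 10 µM and 899 to 1796 with PE and 10 µM. It was 1005 to 1354 FPKM at 50 µM and 643 to 1247 FPKM with PE and 50 µM. Col1a1 and Col3a1 made up most of the sum, at means of 955 and 930 FPKM in Vehicle and 427 and 411 FPKM at 50 µM. Of the 10 tested markers 5 were called lower at 50 µM alone, where 30.2% of all rows were. These were Col1a1, Col3a1, Thy1, Ddr2 and Fap, while Dcn, Lum, Pdgfra, Tcf21 and Postn were not called. Col1a2 had its median at the floor of 0.01 FPKM in every group, and its highest value was 0.017 FPKM, in PE. Col1a1 stood at 955 FPKM in Vehicle, so a value at or near the floor need not mean absence. The part of smooth muscle cells and fibroblasts in the fall of Acta2 was not tested. Sums over 8 endothelial markers were 2.85 to 10.2 FPKM and over 8 macrophage markers 3.61 to 40.1 FPKM. Of the skeletal muscle markers, the regulators Myod1, Myog, Myf5 and Myf6 had group means of at most 0.09 FPKM beside the high level of Acta1. Of the 10 skeletal muscle markers 2 were tested. Mylpf, the fast skeletal regulatory light chain, stood at 1.00 FPKM in Vehicle and 6.03 FPKM in PE (log2 fold change 1.91; limma adjusted p = 0.00027) and was lower in PE with 50 µM than in PE (-1.81; adjusted p = 0.00012). Ckm, the muscle creatine kinase, which heart muscle also makes, stood at 362 FPKM in Vehicle and 375 FPKM in PE, where it was not called. It was higher than in Vehicle at 10 µM (0.90; limma adjusted p = 0.00022) and at 50 µM (0.71; adjusted p = 0.00013), and higher with PE and 10 µM than in PE (0.67; adjusted p = 0.0021). The part of these markers in the Acta1 result was not tested.

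The FPKM sum per library was lowest in Vehicle, at 610324 to 660958, and was 810428 to 853958 in PE, within a range of 610324 to 910958 over all libraries. When libraries were scaled to the sum of all rows but the members and the 10 most abundant, the median of all tested rows shifted by -0.22 on the log2 scale in PE against Vehicle and by -0.28 in PE with 50 µM against Vehicle, the largest shift of the 13 comparisons; Acta2 then had -0.18 in PE against Vehicle (limma adjusted p = 0.45), and no call of a member changed. The 3 alpha-actins together made up 1.04% of the sum in Vehicle, 2.49% in PE, 1.89% at 10 µM, 2.99% with PE and 10 µM, 1.30% at 50 µM and 1.68% with PE and 50 µM. In every library Actc1 ranked between 2 and 7 among all rows by FPKM, while Acta1 ranked from 8 to 617 and Acta2 from 15 to 190. Absolute read depth is not given in the sources used here, and relative depth, read from the steps between low values, ran from 0.833 to 1.11 times that of Vehicle replicate 2.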

How the data were processed

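The authors deposited 1 table of FPKM values, 1 column per library, made from polyadenylated RNA per the labels. Bowtie2, Cufflinks and the rn5 build are named per the submitters' processing notes. Their versions, the annotation and the assignment of shared reads are not given in the sources used here. No deposited value is under a floor of 0.01 FPKM.

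Groups and replicate numbers came from the labels. log2(FPKM + 1) was fitted with limma 3.58.1 (variance trend) in R 4.3.3, with 6 group means and 12 residual degrees of freedom, over the 10478 rows that reached 1 FPKM in 3 libraries or more. P-values were adjusted per comparison by Benjamini-Hochberg, with a threshold of 0.05. This scale understates fold changes of low rows. The fit was tested on simulated data for PE against Vehicle alone, with independent errors. That simulation does not cover the interactions or the pairing of libraries by replicate number. Figures were drawn with matplotlib 3.10.9, and tables made with pandas 2.3.3 and numpy 2.4.6 in Python 3.11.15.

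Deviations from group means correlated by 0.213 to 0.587 in all 45 pairs of libraries with the same replicate number and by -0.462 to 0.0949 in the 90 others, so the numbers pair libraries, by a source that the labels do not name. Sequences are from the RefSeq promoter table on GRCr8, which had entries for all 3 members.

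Named genes are the members, the 5 rows most like each, the 3 other actins, a panel of 8 (Srf, Myocd, Mrtfa, Mrtfb, Tead1, Myh11, Cnn1 and Tagln), and of each list up to 3 called genes with the largest change in PE against Vehicle or in either dose with PE against PE. The members and the lists were chosen with earlier results of these data known.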

Additional observations from a re-analysis of the deposited data

Results flagged for a closer look

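The PE response differed with the inhibitor for Acta1 and Actc1 by the test of the difference itself (limma interaction). The log2 response of Acta1 at 10 µM minus that without Senexin A was -1.84, and at 50 µM it was -4.07. For Actc1 these were -1.01 and -1.27. The Actc1 call at 10 µM lies at the threshold (limma adjusted p = 0.049) and was lost in all but 1 of the 12 fits that left out a library. At 50 µM the Actc1 value was -0.31 under quantile normalization and was not called (limma adjusted p = 0.36). On the linear scale the Acta1 difference at 10 µM had the other sign, at 1361 FPKM.

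The share of Acta1 in the alpha-actin pool moved one way with PE without inhibitor and at 10 µM, and the other way at 50 µM, in every library. The PE effect at 50 µM minus that without inhibitor was -15.8 points, and minus that at 10 µM it was -16.3 points. The effect of 50 µM with PE minus its effect without PE is the same -15.8 points. These differences of shares were not tested.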

How the results depend on the processing

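Of 660 values of the members under other settings, 612 kept direction and call, 33 lost the call, 3 gained it and 12 changed sign. Alternatives were pseudocounts, filters, scalings, the replicate block, the compared groups alone and each library left out; a linear scale was chosen after seeing the data, and on it the Acta1 interaction at 10 µM was 1361 FPKM. The replicate block changed 1 call of a member, Acta1 at 50 against 10 µM (0.36, adjusted p = 0.027). Quantile normalization gives each rank the same value in every library, so the level of Actc1, at rank 2 to 7, then moves only with its rank. Actc1 was then 0.31 at 50 µM against Vehicle, and 0.00 for PE with 50 µM against PE and against PE with 10 µM. It was -0.48 for PE with 10 µM against 10 µM and -0.31 for the interaction at 50 µM, and its PE effect on the share was -4.16 points. Acta2 was then -0.32 in PE and -0.11 at 10 µM against Vehicle, -0.56 for PE with 10 µM against Vehicle and 0.071 for the interaction at 50 µM. Scaling to other rows gave Acta1 -0.011 for PE with 50 µM against 50 µM and Acta2 -0.18 for PE against Vehicle. Without a filter Actc1 was not called for PE with 50 µM against PE (-0.41), PE with 50 µM against 50 µM (0.61), 50 against 10 µM (-0.40) or the interaction at 10 µM (-1.01), and with the compared groups alone not for the first 3. The last was also lost at pseudocounts of 0.1 and 0.5 (both -1.01).

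With single libraries left out, Acta1 ran from -0.046 to 0.12 for PE with 50 µM against 50 µM and from 0.17 to 0.59 for 50 against 10 µM, Acta2 from -0.095 to 0.27 for PE against Vehicle, and Actc1 from -0.51 to -0.35 for PE with 50 µM against PE, 0.49 to 0.76 for PE with 50 µM against 50 µM, -0.55 to -0.28 for 50 against 10 µM and -1.10 to -0.95 for the interaction at 10 µM. Of 276 share values 245 counted as the same, 26 moved by more than their spread and 5 changed sign. Values of single comparisons were held against their spread, and PE effects averaged over the doses were judged by sign and by p under 0.05. Besides the averaged PE effect of Actc1 named above, the other 4 that changed sign were also for Actc1: -0.275 points in PE under quantile normalization, -1.06 for 50 against 10 µM under it, and, with 6 actins summed, 0.652 for PE with 10 µM against PE and 3.73 against 10 µM. Rows called moved from 3205 to 4869 in PE against Vehicle and from 734 to 1317 for the interaction at 50 µM with scaling to other rows, and from 1500 to 720 for PE with 50 µM against 50 µM with the compared groups alone. The interaction at 10 µM was called for 32 rows, 20 without a filter and 230 with the block. The block gave 2761 rows in place of 1696 for 10 µM against Vehicle, 2924 in place of 1778 for PE with 10 µM against PE, 2491 in place of 1500 for PE with 50 µM against 50 µM and 1690 in place of 734 for the interaction at 50 µM. With libraries left out, these counts fell as low as 949 for 10 µM against Vehicle, 1032 for PE with 10 µM against PE, 943 for PE with 50 µM against 50 µM, 13 for the interaction at 10 µM and 391 for that at 50 µM. Of 120 list counts, 28 moved by over 1.5 times.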
